A study of Arabidopsis thaliana with 12 samples.

Results

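The chloroplast genome of Arabidopsis thaliana encodes core subunits of the 4 large thylakoid complexes of photosynthesis and the large subunit of Rubisco. The array probe sets tied to 1 gene were searched for chloroplast genes whose symbol begins with psa, psb, pet, atp or rbcL, or is ycf3 or ycf4. All 35 such genes among the 85 protein-coding chloroplast genes of the gene table were found, each with 1 probe set, out of 22746 probe sets tested. They comprise 15 genes of photosystem II (psb), 7 of photosystem I (5 psa genes and the assembly factors ycf3 and ycf4), 6 of the cytochrome b6f complex (pet), 6 of the ATP synthase (atp) and rbcL.

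The plants were whole 14-day-old seedlings of the Col-0 ecotype, grown on medium with sucrose in cycles of 16 h light and 8 h dark, and all of them carried 35S:HF-RPL18B. This transgene expresses a cytosolic ribosomal protein, L18B, fused to His6 and FLAG tags, from the near-constitutive 35S promoter, and no untagged plants were analysed here. Seedlings were taken after 1 h of darkness and 10 min of new light (reilluminated), after 1 h of darkness that began halfway through the light period (dark), or after 1 h of continued light (light). From each, polysomal RNA was eluted from anti-FLAG beads, and total RNA came from the clarified extract that went onto the beads. With 2 arrays in each of 6 groups there were 12 Affymetrix ATH1 arrays, and the labels call the replicates independent biological experiments.

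Photosystem II splits water, the cytochrome b6f complex passes electrons on to photosystem I, and the ATP synthase uses the proton gradient that builds up. Chloroplast genes are transcribed mostly in clusters, and their mRNAs are translated by the chloroplast's own ribosomes, which do not contain L18B. Chloroplast mRNAs also lack the stable poly(A) tails of nuclear mRNAs, while one-cycle labelling of the kind used here starts from oligo(dT), and how fully these transcripts were copied was not measured. Neither was the route by which they reached the anti-FLAG eluate. The extraction buffer held cycloheximide, which stops cytosolic ribosomes, and chloramphenicol, which stops those of the chloroplast.

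All values are log2 RMA expression values, differences are log2 differences between groups, and the fitted standard error follows ± (n = 2 arrays in each group). A difference was called where its limma p, adjusted by Benjamini-Hochberg over all 22746 probe sets, was under 0.05. The median SE was 0.134 for group differences and 0.189 for changes in the ratio of polysomal to total RNA. RMA makes the value distributions of the arrays alike: their medians lay between 6.05 and 6.19 and their lower quartiles between 4.07 and 4.17, so each change is relative to the rest of the array. Whole seedlings were extracted, and whether a change came from the share of green cells or from RNA per cell was not tested. In total RNA the nuclear genes for photosynthetic proteins that were measured had a median change of -0.05 in dark over light seedlings. Their median was -0.01 in reilluminated over dark and -0.12 in reilluminated over light seedlings. None of the 6 markers of green tissue and none of the 4 of flower and seed had a probe set that the platform annotation ties to them alone. That annotation does not list 8730 of the 22746 probe sets, so these genes may still be on the array. Of the 8 root markers, 2 had such a probe set. PYK10 lay between 12.9 and 13.4 on the 12 arrays, and EXPA7 between 4.45 and 5.94. Neither was called between conditions in either RNA pool.

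All 35 transcripts were lower in polysomal than in total RNA in each of the 3 conditions. The median difference was -4.05 in reilluminated seedlings (16.6-fold lower in polysomal RNA), -3.52 in dark seedlings (11.5-fold lower) and -4.16 in light (17.9-fold lower). Over all tested probe sets, 14.6% were called lower in reilluminated seedlings, 11.8% in dark seedlings and 17.6% in light, and the median over all of them was 0.02 in reilluminated, 0.02 in dark and 0.03 in light seedlings. The distance between the pools differed among the genes. For psaA, one of the paired reaction centre proteins of photosystem I, polysomal RNA in light read 5.31 and 4.87, against 10.4 and 11.1 in total RNA. Its difference of -5.65 ± 0.24 (50.1-fold lower) was the largest of the 35 in light. The smallest was at petN, a small cytochrome b6f subunit, with 5.63 and 5.75 in polysomal and 8.40 and 7.23 in total RNA in light, a difference of -2.12 ± 0.30 (4.36-fold lower). For both genes the pools did not overlap.

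**Figure D1:**
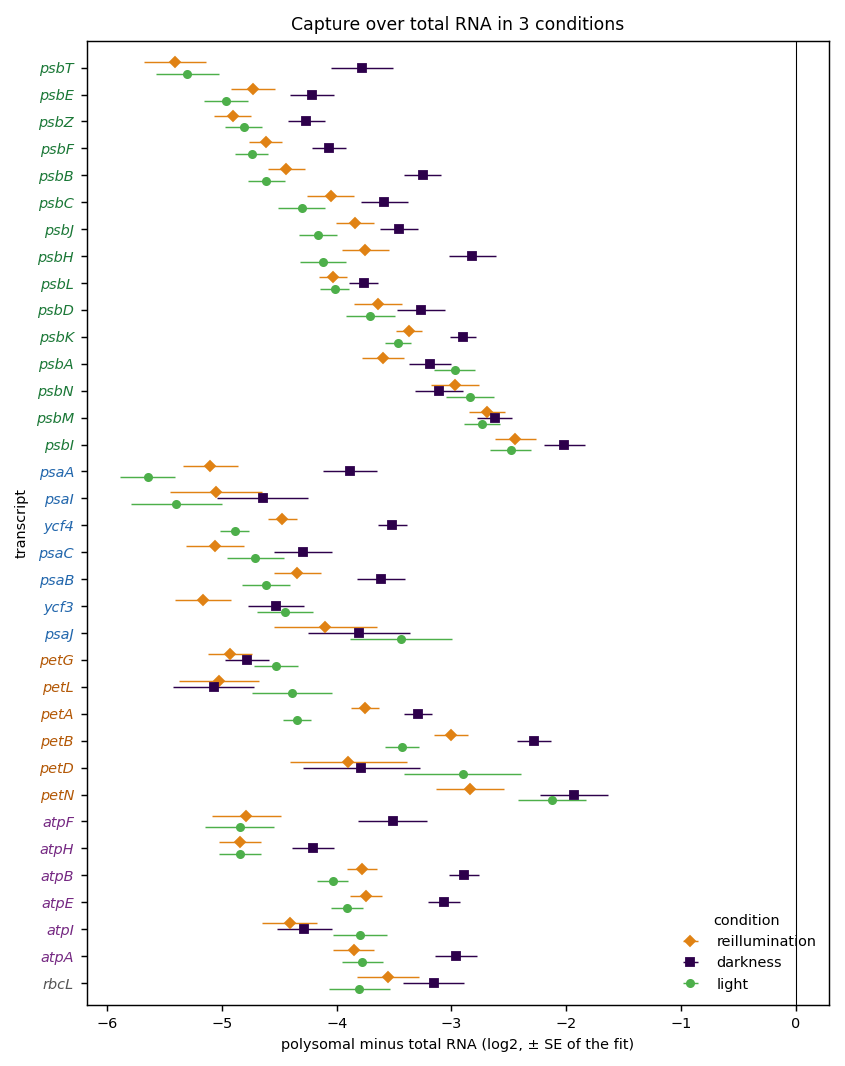
Log2 difference of polysomal over total RNA (x axis) for each of the 35 transcripts (rows, by complex), with a point for each condition and bars of 1 SE of the fit (n = 2 arrays per group). Every point is below 0, and in most rows the dark point lies closest to 0; the medians are -4.05 in reilluminated, -3.52 in dark and -4.16 in light seedlings.

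By complex, photosystem I had a median difference between the pools of -5.05 in reilluminated, -3.88 in dark and -4.71 in light seedlings. Photosystem II had -3.84 in reilluminated, -3.27 in dark and -4.12 in light seedlings, and the cytochrome b6f complex -3.83 in reilluminated, -3.54 in dark and -3.89 in light seedlings. For the ATP synthase it was -4.13 in reilluminated, -3.29 in dark and -3.97 in light seedlings, and rbcL was at -3.55 in reilluminated, -3.15 in dark and -3.81 in light seedlings. In each complex the dark median was nearest to 0. Besides psaA, the ends of each complex in light were psaJ (-3.44) for photosystem I, psbT (-5.30) and psbI (-2.48) for photosystem II, petG (-4.53) for the cytochrome b6f complex, and atpF (-4.85) and atpA (-3.78) for the ATP synthase. For psbT and petG both light polysomal values were under the lower quartile of their arrays, so these differences are set against values near background. The light polysomal arrays of psaJ read 7.06 and 9.12, and its difference was -4.47 without the second of them, next to -4.45 for ycf3. The 34 other chloroplast-encoded transcripts measured, for NDH subunits, ribosomal proteins, RNA polymerase and others, were likewise all lower, with medians of -4.24 in reilluminated, -3.76 in dark and -4.11 in light seedlings. The 16 transcripts of the mitochondrial genome, which are translated inside that organelle, had medians of -0.72 in reilluminated, -1.11 in dark and -0.66 in light seedlings, but on each polysomal array 7 of the 16 were under the lower quartile, not always the same 7. Of 10 nuclear genes for photosynthetic proteins the medians were 0.23 in reilluminated, -0.06 in dark and 0.18 in light seedlings.

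In polysomal RNA, 20 of the 35 transcripts were higher in dark than in light seedlings and none was lower. The background was 8.49% of all probe sets called higher and 8.68% called lower. The median over the 35 was 0.77 (1.70-fold), against -0.02 over all tested probe sets, and 31 of the 35 differences were above 0. Both dark arrays exceeded both light arrays for 26 of the 35, against 25.3% of all probe sets. Within each replicate experiment the median was 0.85 and 0.82. With the replicate experiments as a block, 23 transcripts were called higher, against 2829 of all 22746 probe sets.

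Among the photosystem I genes, psaA and psaB encode the reaction centre pair. Polysomal psaA read 6.99 and 6.81 in dark and 5.31 and 4.87 in light seedlings. Every dark value was above every light value, by 1.82 ± 0.24 or 3.52-fold (adjusted p = 0.000358). For psaB the arrays gave 9.94 and 9.67 in dark and 8.73 and 8.68 in light seedlings, a difference of 1.10 ± 0.21 (adjusted p = 0.00358). The product of ycf4 helps to assemble photosystem I, and its transcript read 7.13 and 6.92 in dark and 5.66 and 5.49 in light seedlings. It rose by 1.45 ± 0.13 (2.73-fold, adjusted p = 2.51e-05), the smallest adjusted p of the 35. The other 4 members were not called: the assembly factor ycf3 differed by 0.19 ± 0.24, psaC, which carries iron-sulphur clusters, by 0.57 ± 0.25, and the small subunit psaI by 0.77 ± 0.40. The small subunit psaJ read 7.77 and 7.89 in dark but 7.06 and 9.12 in light seedlings, so its light arrays lay on both sides of the dark ones. Its difference was -0.26 ± 0.45, and it was 0.77 without the second light polysomal array and -1.29 without the first, past the threshold both ways.

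Among the photosystem II genes, 10 of 15 rose, with a median of 0.73. The gene psbB encodes the core antenna protein CP47 and read 7.46 and 7.62 in dark and 5.98 and 5.80 in light seedlings. It rose by 1.65 ± 0.16 (3.14-fold, adjusted p = 4.9e-05). The small subunit gene psbT had 5.82 and 5.88 in dark and 3.90 and 3.90 in light seedlings. This was the largest change of the 35, 1.95 ± 0.27 or 3.86-fold (adjusted p = 0.000524), but both light values were under the lower quartile of their arrays, where RMA values are compressed. The core antenna gene psbC (CP43) rose by 0.98 ± 0.20, with 7.38 and 7.14 in dark and 6.40 and 6.15 in light seedlings, a call lost without the first dark (adjusted p = 0.0522) or the second light polysomal array (0.0635). Its partner psbD, for the reaction centre protein D2, had 5.40 and 5.28 in dark and 5.02 and 4.46 in light seedlings and was not called (0.60 ± 0.21, adjusted p = 0.0758, and 0.0324 with the replicate block). The other photosystem II genes that rose were psbE and psbF, for cytochrome b559, and psbH, psbJ, psbK, psbL and psbZ, for small subunits, by 0.58 to 1.22. Of these, psbE, psbF and psbL lost their call without the second light or the second dark polysomal array, and psbE also without the first dark one (adjusted p of 0.0519 to 0.206).

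The gene psbA was not among those that rose. It encodes the reaction centre protein D1, which is damaged by light and continually replaced. Its polysomal values were 8.91 and 8.89 in dark and 8.69 and 9.05 in light seedlings. The light arrays lay on both sides of the dark ones, and the difference was 0.03 ± 0.18 (adjusted p = 0.949). Its sign turned to -0.004 when the arrays were centred on their medians and to -0.15 without the first light polysomal array. Also not called were psbI (0.50 ± 0.18, adjusted p = 0.0793, and 0.0389 with the block), psbM and psbN, with psbN at -0.05 ± 0.21 and 4.62 and 4.93 in dark against 4.63 and 5.01 in light seedlings.

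**Figure D2:**
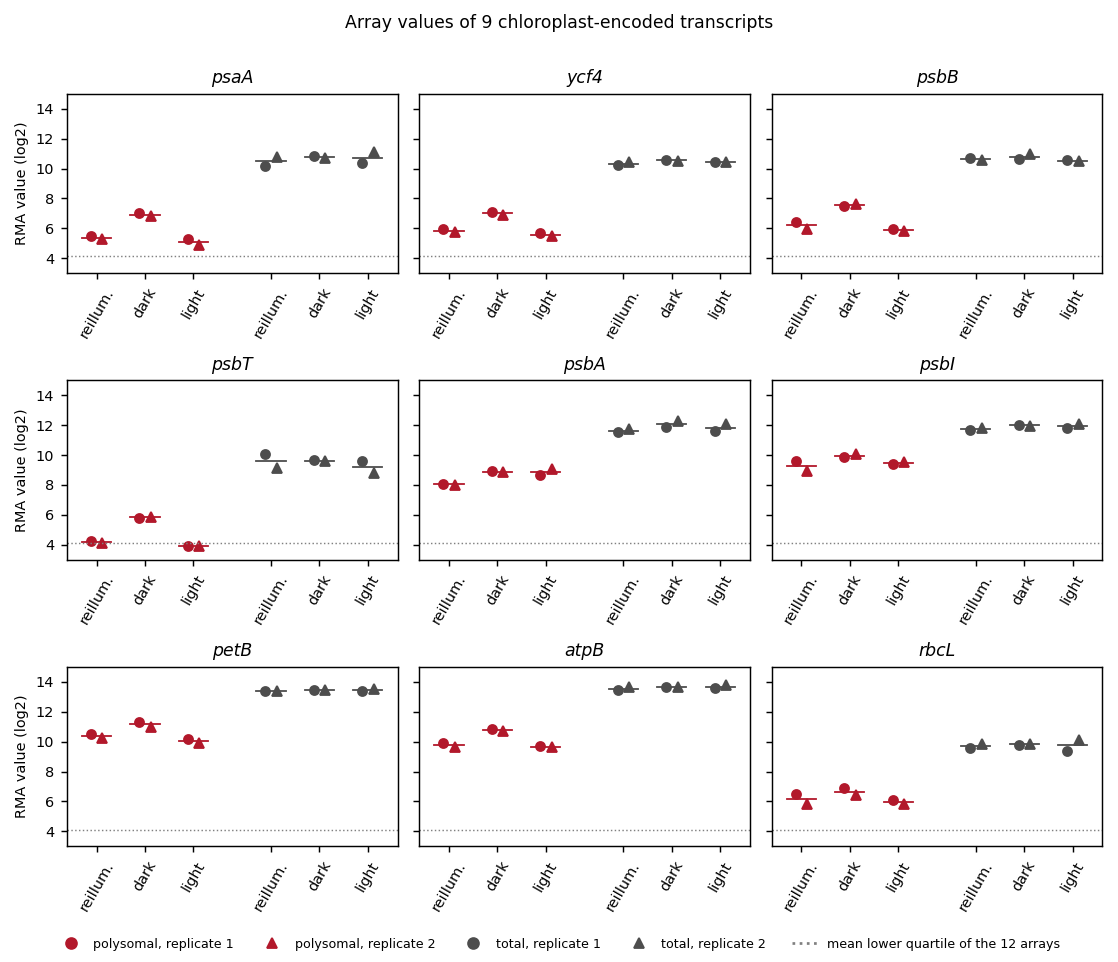
Log2 RMA values of 9 transcripts on each of the 12 arrays (y axis), with polysomal and total RNA as separate groups of points by condition; each point is 1 array and the bar is the group mean. Polysomal psaA, ycf4, psbB and atpB are higher on both dark arrays than on all reilluminated and light arrays, while polysomal psbA is lower on both reilluminated arrays than on the other polysomal arrays.

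Among the cytochrome b6f genes the complex fell into a pair that rose and 4 that were not called, with a median of 0.12. For petA, which encodes cytochrome f, polysomal values were 8.70 and 8.54 in dark and 7.54 and 7.49 in light seedlings, a rise of 1.11 ± 0.12 (2.16-fold, adjusted p = 0.000123). For petB, which encodes cytochrome b6, they were 11.3 and 11.0 in dark and 10.2 and 9.88 in light seedlings, a rise of 1.13 ± 0.15 (2.19-fold). The gene for subunit IV, petD, read 4.06 and 3.78 in dark and 4.01 and 3.91 in light seedlings. These values lay under the lower quartiles of the arrays, and the difference was -0.04 ± 0.51. The small subunit genes petG, petL and petN differed by 0.12, -0.15 and 0.11. Of these, petG was under the lower quartile on every polysomal array and petL on 1 array of each polysomal group.

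Of the ATP synthase genes, 5 of 6 rose, with a median of 1.08. The gene atpB encodes the catalytic beta subunit and read 10.8 and 10.7 in dark and 9.68 and 9.61 in light seedlings, a rise of 1.12 ± 0.13 (2.18-fold, adjusted p = 0.000192). The alpha subunit gene atpA rose by 1.04 ± 0.18 and the epsilon subunit gene atpE by 1.04 ± 0.14. For atpF, a stator subunit of the membrane part, arrays of 8.08 and 7.76 in dark and 6.57 and 6.21 in light seedlings gave a rise of 1.53 ± 0.30 (adjusted p = 0.00445, and 0.0512 without the second light polysomal array). For atpH, the subunit of the rotating ring, 7.24 and 7.15 in dark and 5.94 and 5.75 in light seedlings gave 1.34 ± 0.18. The exception was atpI, for the subunit next to the ring, at 0.07 ± 0.24. Its values lay under the lower quartile on every polysomal array, near background. The only Rubisco gene of the chloroplast, rbcL, read 6.91 and 6.41 in dark and 6.07 and 5.82 in light seedlings. Both dark arrays were above both light arrays, but the difference of 0.72 ± 0.27 was not called (adjusted p = 0.0937, and 0.041 with the replicate block).

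Set side by side, the ATP synthase had the largest median change in the dark in both replicate experiments, 1.18 and 1.09. The medians were 0.85 and 0.69 for photosystem I, 0.47 and 0.82 for photosystem II, and 0.51 and 0.17 for the cytochrome b6f complex. Differences between complexes were not tested. The 6 genes with at least 1 polysomal array under the lower quartile (psbT, ycf3, petD, petG, petL and atpI) held 1 of the 20 calls and had a median of 0.09. The other 29 held 19, with a median of 0.83.

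**Figure D3:**
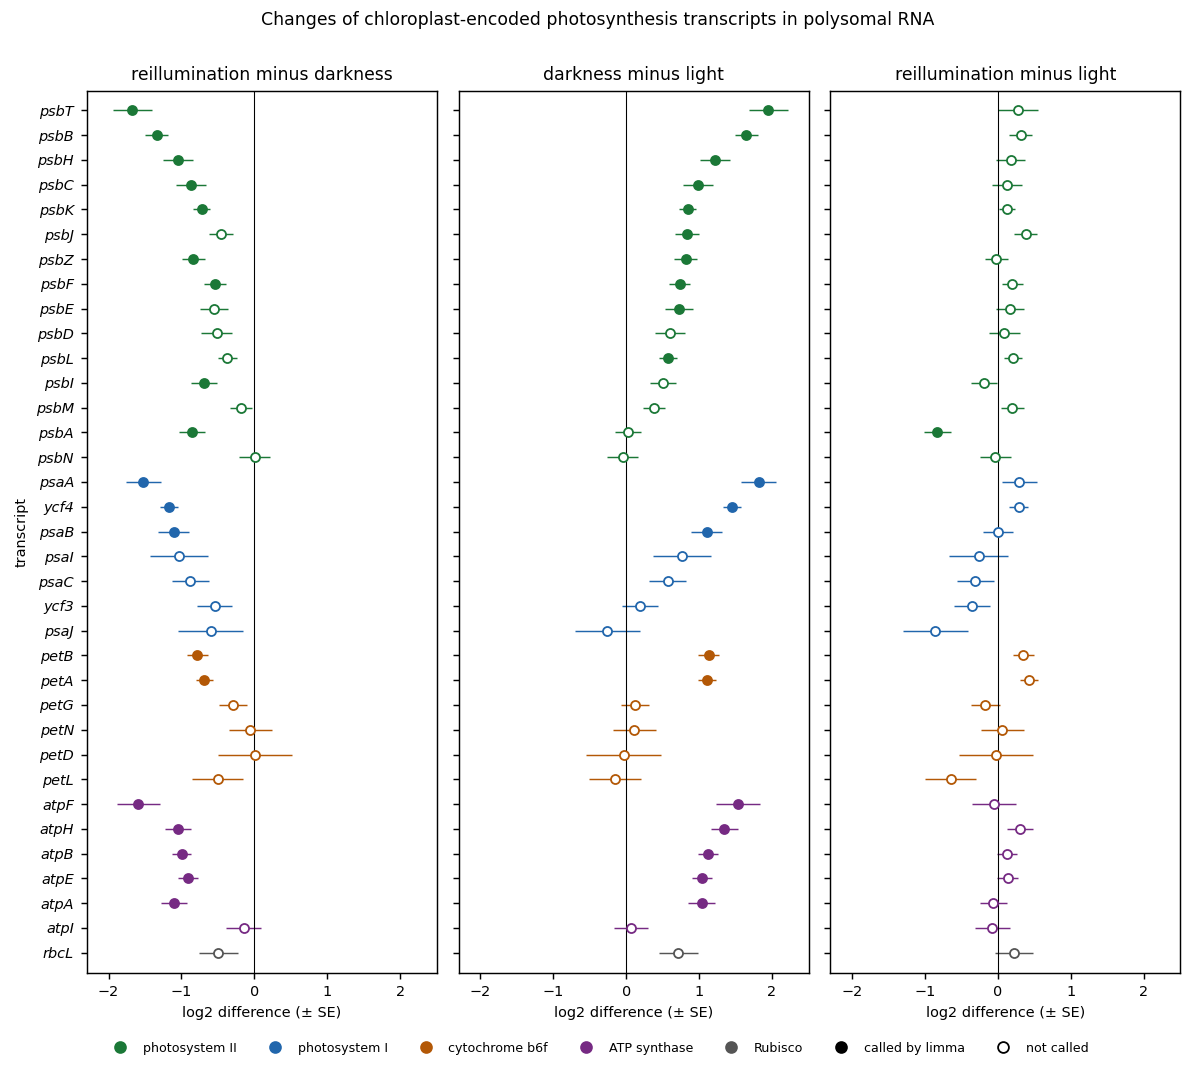
Log2 differences in polysomal RNA for each of the 35 transcripts (rows, by complex) in 3 comparisons, with bars of 1 SE of the fit (n = 2 arrays per group) and filled points for called differences. The changes of dark over light seedlings run up to 1.95 at psbT, those of reilluminated over dark seedlings down to -1.67 at the same gene, and those of reilluminated over light seedlings stay between -0.86 and 0.43.

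After 10 min of light, 19 of the 35 polysomal transcripts were lower in reilluminated than in dark seedlings and none was higher. Over all probe sets, 3.2% were called lower and 4.62% higher. The median was -0.72, against 0.00 over all tested probe sets (-0.003), and both reilluminated arrays were below both dark arrays for 29 of the 35 (24.6% of all probe sets). With the replicate block 1680 of all 22746 probe sets were called lower, and 23 of the 35. The count was 9 without the first dark polysomal array and 8 without the second reilluminated one, and 21 at most with another array left out. This comparison uses the same dark polysomal arrays as that of dark with light seedlings, so the measurement error of those arrays enters both with opposite sign.

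The largest fall was at psbT, with 4.27 and 4.09 in reilluminated against 5.82 and 5.88 in dark seedlings. The difference was -1.67 ± 0.27 (3.19-fold lower, adjusted p = 0.00495), and the second reilluminated value was under the lower quartile of its array. Polysomal psaA read 5.48 and 5.28 in reilluminated and 6.99 and 6.81 in dark seedlings (-1.52 ± 0.24, adjusted p = 0.00412). For ycf4 the values were 5.98 and 5.73 in reilluminated and 7.13 and 6.92 in dark seedlings (-1.17 ± 0.13, adjusted p = 0.000843). All reilluminated values of these 3 genes lay below the dark ones. For psbB the arrays gave 6.43 and 5.97 in reilluminated and 7.46 and 7.62 in dark seedlings (-1.34 ± 0.16, adjusted p = 0.00137). The ATP synthase genes atpB (9.93 and 9.61 in reilluminated, 10.8 and 10.7 in dark) and atpF (6.90 and 5.76 in reilluminated, 8.08 and 7.76 in dark) fell by 1.00 ± 0.13 and 1.59 ± 0.30, and the call for atpF was lost without the first dark (adjusted p = 0.068) or the second reilluminated polysomal array (0.0543).

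By complex, 9 of 15 photosystem II genes fell (median -0.69), 3 of 7 of photosystem I (-1.04), 2 of 6 of the cytochrome b6f complex (-0.40) and 5 of 6 of the ATP synthase (-1.02). The pair in the cytochrome b6f complex was again petA, with 7.92 and 7.96 in reilluminated and 8.70 and 8.54 in dark seedlings (-0.68 ± 0.12), and petB, with 10.5 and 10.3 in reilluminated and 11.3 and 11.0 in dark seedlings (-0.78 ± 0.15), and both lost their call without the first dark or the second reilluminated polysomal array (adjusted p of 0.0528 to 0.0908). At the other end petD differed by 0.01 ± 0.51, psbN by 0.01 ± 0.21 and atpI by -0.15 ± 0.24. Of these, atpI lay under the lower quartile on every polysomal array, and petD on both dark ones. The smallest difference within photosystem I was that of ycf3, at -0.55 ± 0.24. The Rubisco gene rbcL had 6.51 and 5.81 in reilluminated and 6.91 and 6.41 in dark seedlings, which overlap, and a difference of -0.50 ± 0.27 (adjusted p = 0.322).

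Both changes were called for 17 genes. The genes psbE, psbJ and psbL were called only in dark over light seedlings, psbA and psbI only in reilluminated over dark seedlings, and 13 in neither. With the replicate block, psbE and psbJ were called in reilluminated over dark seedlings too, and psbI in dark over light seedlings. Whether the changes of these 5 genes differ from those of the 17 was not tested. Polysomal psbA read 8.06 and 8.02 in reilluminated seedlings, against 8.91 and 8.89 in dark and 8.69 and 9.05 in light seedlings. Both reilluminated values lay below all others, and psbA fell in reilluminated seedlings against both: by 0.86 ± 0.18 against dark (1.81-fold lower, adjusted p = 0.0158) and by 0.83 ± 0.18 against light seedlings (1.78-fold lower, adjusted p = 0.014). For psbI, a small photosystem II subunit, 9.59 and 8.95 in reilluminated and 9.87 and 10.1 in dark seedlings gave -0.69 ± 0.18 (adjusted p = 0.0371). The fall against dark seedlings lost its call for psbA without either dark or either reilluminated polysomal array (adjusted p of 0.0615 to 0.0971). For psbI it did so without 7 of the 12 arrays in turn, up to an adjusted p of 0.25 without the second reilluminated polysomal array.

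In reilluminated against light seedlings, psbA was the only one of the 35 polysomal transcripts called lower and none was called higher, where 4.1% of all probe sets were called lower and 4.78% higher. The median over the 35 was 0.12. Of the 34 other chloroplast-encoded transcripts, 1 was likewise called lower there and none higher, and the replicate block called 2 of them lower and 2 higher. The psbA call was lost without the first reilluminated polysomal array (adjusted p = 0.0626), without the second (0.0819) and without the second light polysomal array (0.133), and the fitted change was lowest in size in the last, at -0.65. With the replicate block petA was called as well (0.43 ± 0.12, adjusted p = 0.0541, and 0.0268 with the block). A change missing the threshold does not show equal levels: for psaA the values were 5.48 and 5.28 in reilluminated and 5.31 and 4.87 in light seedlings, a difference of 0.29 ± 0.24.

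**Figure D4:**
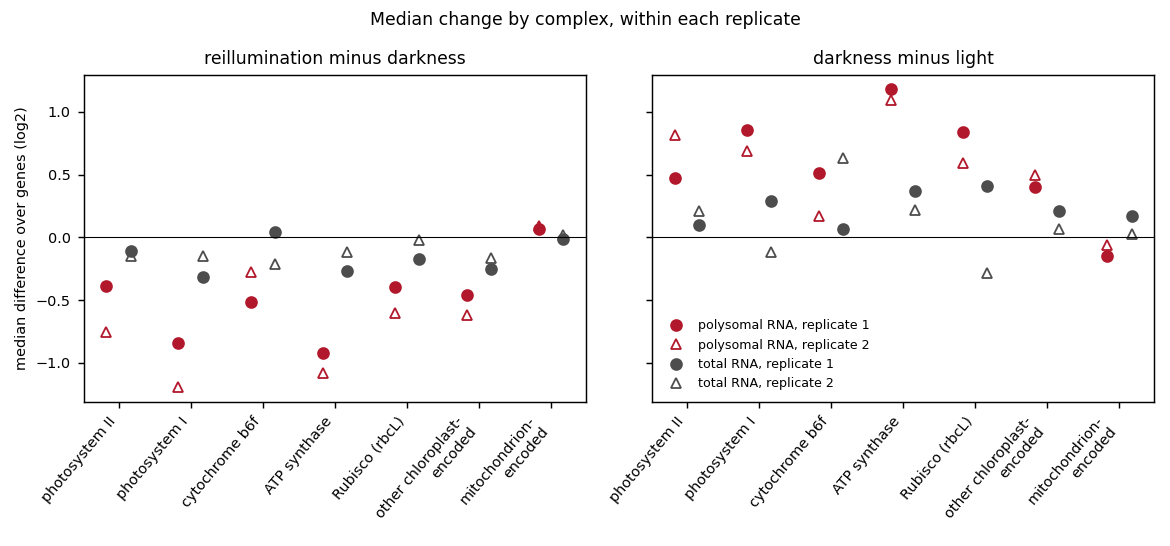
Median log2 change within each replicate experiment (points) for the genes of each complex, for the other chloroplast-encoded and for the mitochondrion-encoded transcripts, in polysomal and in total RNA (log2, y axis), for reilluminated over dark and for dark over light seedlings. In polysomal RNA the ATP synthase medians of dark over light seedlings are 1.18 and 1.09; the mitochondrial transcripts, whose fitted median is -0.04, lie near 0.

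Total RNA held few called changes of the 35 transcripts. In dark over light seedlings 1 was called, atpH, with 11.2 and 11.6 in dark and 10.4 and 10.9 in light total RNA, and 4.38% of all probe sets were called higher and 5.07% lower. Its rise was 0.71 ± 0.18 (1.63-fold, adjusted p = 0.0314), with the adjusted p at 0.263 without the second dark and at 0.225 without the first light total RNA array. The median over the 35 was 0.20 and 30 of the differences were above 0. In reilluminated over dark seedlings limma called 0 of the 35 and 0% of all probe sets, with 3 of the 35 at an unadjusted p under 0.05 and 0 called with the replicate block, and the median was -0.14. In reilluminated over light seedlings it called 0 of the 35, against 4.07% of all probe sets called higher and 3.84% lower, with 2 at an unadjusted p under 0.05, and the median was 0.01. For psbT the arrays read 10.0 and 9.13 in reilluminated, 9.66 and 9.60 in dark and 9.61 and 8.80 in light total RNA. For psaA total RNA read 10.2 and 10.8 in reilluminated, 10.8 and 10.7 in dark and 10.4 and 11.1 in light seedlings, all overlapping. For psbA it read 11.6 and 11.7 in reilluminated, 11.9 and 12.3 in dark and 11.6 and 12.1 in light seedlings. Both reilluminated psbA values lay below both dark ones, a difference that was not called. Some of the 35 read near the top of the scale in total RNA. In dark total RNA atpE read 14.08 and 14.29, and the highest tested probe sets of these arrays read 14.27 and 14.29. Over the total RNA arrays atpB read 13.43 to 13.77 and petB 13.37 to 13.53. Whether such high signals hid changes in total RNA, and so altered changes in the ratio of polysomal to total RNA, was not tested.

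Whether polysomal RNA changed differently from total RNA was tested as the change of the polysomal-to-total ratio. In dark over light seedlings the ratio rose for 6 of the 35: psaA by 1.76 ± 0.34 (adjusted p = 0.0395), ycf4 by 1.37 ± 0.18 (0.0186), psbB by 1.36 ± 0.23 (0.0334), atpB by 1.15 ± 0.19 (0.0325), petB by 1.15 ± 0.21 (0.0354) and petA by 1.06 ± 0.17 (0.0333). Over all probe sets 0.334% were called higher, and the psaA value was the highest of all 22746. The replicate block called 860 of all 22746 probe sets higher. The median over the 35 was 0.65. With the replicate block 15 were called, while 0 were called when any 1 array of light or dark RNA was left out, other than the first dark total RNA array, and 3 when either reilluminated total RNA array was left out. In reilluminated over dark seedlings 0.145% of all 22746 probe sets were called lower for the ratio, and 370 with the replicate block. Of the 35, the ratio fell there for psbB by 1.19 ± 0.23 (adjusted p = 0.0377) and for ycf4 by 0.96 ± 0.18 (0.0359). The median was -0.51, the block gave 9 calls, and leaving out any 1 array gave 0 or 1. In reilluminated over light seedlings limma called 0 of the 35 and 0% of all probe sets, with 3 of the 35 at an unadjusted p under 0.05 and 0 with the block. The ratio change of psbA there was -0.63 ± 0.26 (adjusted p = 1).

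Genes that share a transcription unit in the chloroplast genome were set side by side for the polysomal change in dark over light seedlings. In the unit of psbB, psbT, psbH, petB and petD, the first 4 rose by 1.65, 1.95, 1.22 and 1.13, while petD was at -0.04 and under the lower quartile on every polysomal array but 1. The gene psbN, which lies among them on the other strand, was at -0.05. In the unit of psbD, psbC and psbZ, psbC and psbZ rose by 0.98 and 0.81 and psbD was at 0.60, not called. In that of psbK and psbI, psbK rose by 0.84 and psbI was at 0.50, not called. All 4 genes of the psbE, psbF, psbL and psbJ unit rose, by 0.58 to 0.83. In the unit of atpI, atpH, atpF and atpA, 3 rose by 1.04 to 1.53. There atpI was at 0.07, with values under the lower quartile on every polysomal array. Both genes of the atpB and atpE unit rose, by 1.12 and 1.04, as did both of psaA and psaB, by 1.82 and 1.10. In the unit of psaI, ycf4 and petA, ycf4 and petA rose by 1.45 and 1.11 and psaI was at 0.77. None of petL, petG and psaJ was called (-0.26 to 0.12), with petG under the lower quartile on every polysomal array. Neighbours in a unit may lie on 1 RNA molecule, so they are not independent measurements.

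**Figure D5:**
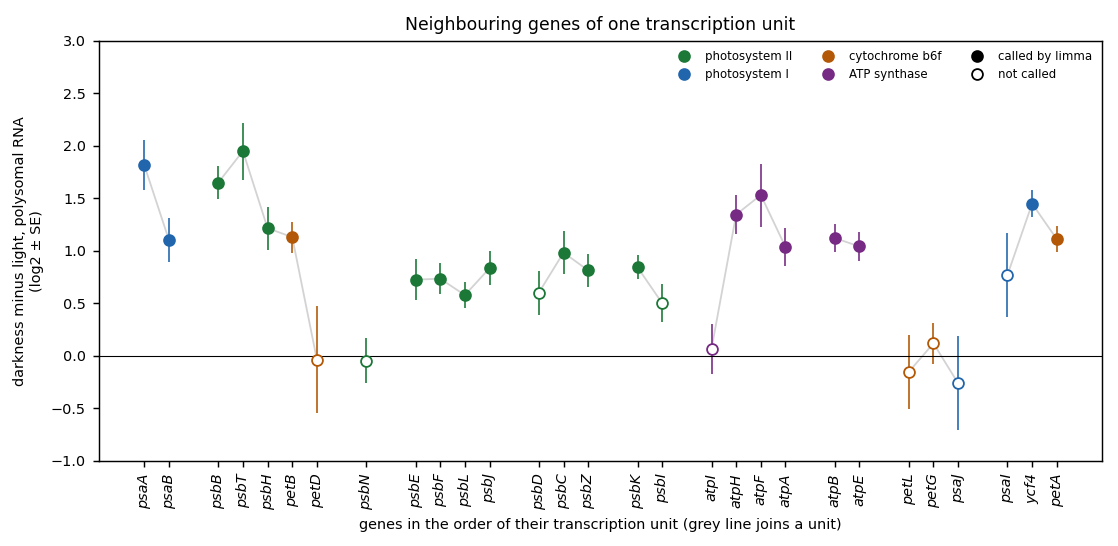
Log2 change of polysomal RNA in dark over light seedlings (y axis) for the genes of each transcription unit (x axis), with bars of 1 SE of the fit (n = 2 arrays per group) and filled points for called changes. The psbE-psbF-psbL-psbJ genes lie between 0.58 and 0.83, while the psbB unit spans from -0.04 at petD to 1.95 at psbT.

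Other genes of the chloroplast and of the mitochondrion were set beside the 35. Of the 34 other chloroplast-encoded transcripts, 12 were higher in polysomal RNA of dark than of light seedlings and none was lower (median 0.50), where 8.49% of all probe sets were called higher. In reilluminated against dark seedlings 11 of them were lower and none was higher (median -0.59), where 3.2% of all probe sets were called lower. Whether the photosynthesis genes differ from them was not tested. Of the 16 mitochondrial transcripts limma called 0 in either comparison, with medians of -0.04 in dark over light and 0.09 in reilluminated over dark seedlings, and with 7 of the 16 under the lower quartile per polysomal array. At an unadjusted p under 0.05 there were 2 in dark over light and 1 in reilluminated over dark seedlings, and with the replicate block 1 was called lower in each.

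Of the 10 nuclear genes of these complexes and their antennae that were measured, 2 were lower in polysomal RNA of dark than of light seedlings and none was higher, where 8.68% of all probe sets were called lower. For PSB27, a photosystem II repair factor, the arrays gave 12.2 and 12.2 in dark and 12.9 and 12.7 in light seedlings (-0.57 ± 0.11, adjusted p = 0.00323). The antenna gene LHCB4.2 was lower in dark than in light seedlings by 0.35 ± 0.11 on the log2 scale (difference -0.345, adjusted p = 0.0453, a call lost when any 1 array was left out). It was higher in reilluminated than in dark seedlings by 0.41 ± 0.11 (adjusted p = 0.0373, a call kept in 4 of the 12 fits that left out 1 array). Of 28 nuclear factors of plastid gene expression listed, 3 had a probe set that the platform annotation ties to them alone. AT5G42310, whose maize counterpart is known for a role in the expression of pet genes, was lower in reilluminated than in dark polysomal RNA (-0.47 ± 0.12, adjusted p = 0.04, a call kept in 4 of the 12 such fits). Its dark polysomal values of 7.268 and 7.305 lay between the light ones of 7.448 and 7.164. In total RNA it was lower in dark than in light seedlings (-0.49 ± 0.12, adjusted p = 0.0261, kept in 8 of the 12). It was also lower in reilluminated than in light seedlings in polysomal RNA (-0.49 ± 0.12, adjusted p = 0.029, kept in 10 of the 12) and in total RNA (-0.45 ± 0.12, adjusted p = 0.0445, kept in 4 of the 12). The genes AT2G18940 and ATAB2 were called in none of the comparisons between conditions.

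As signs of RNA quality, the log2 ratio of 3' to 5' control probe sets for GAPDH in polysomal RNA was 1.11 and 1.40 in reilluminated, 0.90 and 1.02 in dark and 0.93 and 1.33 in light seedlings. For ubiquitin it was 1.33 and 1.44 in reilluminated, 1.31 and 1.33 in dark and 1.52 and 1.43 in light seedlings. For actin it was 3.59 and 3.79 in reilluminated, 3.94 and 3.86 in dark and 3.75 and 3.75 in light seedlings. In dark polysomal RNA, where the chloroplast transcripts were higher, the GAPDH and ubiquitin ratios were lowest on average and the actin ratio was highest, and their part in the result was not tested. Cytosolic 25S ribosomal RNA has a control probe set. In polysomal RNA it read 6.36 and 6.34 in reilluminated, 6.23 and 6.46 in dark and 6.82 and 6.65 in light seedlings. In total RNA it read 6.668 and 7.508 in reilluminated, 7.262 and 7.685 in dark and 6.315 and 7.817 in light seedlings. The actin ratio in total RNA was 4.17 and 3.72 in reilluminated, 4.34 and 3.78 in dark and 4.31 and 4.59 in light seedlings. In total RNA the GAPDH ratios ran from 0.892 to 1.246 and the ubiquitin ratios from 1.506 to 1.623.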

How the data were processed

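Total and polysomal RNA of 3 conditions were measured on 12 arrays. RMA in affy, of unstated version, made the deposited log2 values per probe set, per the submitters' processing notes. A genome build is not given in the sources used here, and coordinates are left out. Of the probe sets, 64 controls were set aside and 22746 were tested; the platform annotation ties 13513 of them to 1 gene, 503 to several and does not list 8730, and 77 of the 13513 were not matched in the reference gene table. A plain probe set was preferred to one open to cross-hybridization, then the highest mean, but each of the 35 genes had only 1. The probe sets of the 16 mitochondrial genes were among those not matched and were assigned by symbol or synonym. Those of ccmFC, mttB, nad6 and matR were not plain but open to cross-hybridization.

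Linear models with 6 group means over all arrays used limma 3.58.1 (R 4.3.3, 6 residual and 5.48 prior degrees of freedom) and two-sided tests. The code was tested on simulated data. The alternatives were a replicate block, other centring, a filter on dim probe sets, trended robust moderation and leaving out each array. Replicate numbers were taken as pairs, since the labels speak of replicate experiments. Over all probe sets, same-numbered arrays deviated together from their group means in all 15 pairs of groups (correlations 0.29 to 0.509). Over the 35 genes alone the correlations ran from -0.38 to 0.793 and were below 0 in 7 pairs, each of a polysomal with a total RNA group. Between the pools of 1 condition they were -0.38 in reilluminated, -0.027 in dark and -0.038 in light seedlings. For these genes a replicate effect shared by both pools, which the block assumes for the ratio changes, was thus not seen. Named with values were, in each complex, the genes with the largest and smallest changes, and 15 core genes. The genes, lists and tests were chosen with earlier results of these data known. Plots were made in matplotlib 3.10.9 under Python 3.11.15. The number of arrays limits the precision.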

Additional observations from a re-analysis of the deposited data

Results flagged for a closer look

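For 8 ratio changes, polysomal and total RNA differed in their response to the same change of light, by limma's test of that difference. In dark over light seedlings the polysomal-to-total ratio changed by 1.76 for psaA, 1.37 for ycf4, 1.36 for psbB, 1.15 for atpB (1.146), 1.15 for petB (1.146) and 1.06 for petA on the log2 scale. In reilluminated over dark seedlings it changed by -1.19 for psbB and -0.96 for ycf4. No call of these 8 held in every fit that left out 1 array. With 2 arrays in a group, no group was large enough to look for single outlying arrays.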

How the results depend on the processing

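Polysomal over total RNA kept all 35 calls in each condition under all alternatives. In polysomal RNA, 15 of the 20 rises of dark over light seedlings and 8 of the 19 falls of reilluminated over dark seedlings held in all of them; outside the fits that left out 1 array, 20 and 18 did. Leaving out 1 array gave 8 to 21 calls for reilluminated over dark and 0 to 3 for reilluminated over light polysomal RNA, 0 to 1 for dark over light and 0 to 2 for reilluminated over light total RNA, and for the ratio changes 0 to 6 in dark over light and 0 to 1 in reilluminated over dark seedlings. The replicate block, which pairs arrays by experiment, gave 15 and 9 calls for those ratio changes. Over all probe sets it called 860 higher and 370 lower in the same 2 comparisons. It gave 2 calls for reilluminated over light polysomal RNA, where the dim filter and the trended fit also gave 2. No other count moved by over 1.5 times with the replicate block. With 1 array left out, the median of the 35 ran from -0.02 to 0.21 for reilluminated over light polysomal RNA, from -0.107 to 0.039 in total RNA and from -0.059 to 0.197 for the ratio. Signs of some changes that were not called with all arrays turned in the same fits, and psaJ and petL moved widely. In dark over light polysomal RNA the ranges were -0.152 to 0.205 for psbA (-0.004 with arrays centred on their medians), -0.238 to 0.145 for psbN, -1.29 to 0.766 for psaJ, -0.057 to 0.439 for ycf3, -0.174 to 0.10 for petD, -0.006 to 0.245 for petG, -0.698 to 0.392 for petL and -0.303 to 0.437 for atpI. In reilluminated over dark polysomal RNA they were -0.159 to 0.17 for psbN, -0.232 to 0.252 for petD, -1.045 to 0.045 for petL, -0.175 to 0.069 for petN and -0.518 to 0.222 for atpI. The causes were not tested. The choice of probe set changed nothing, since each gene had 1.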
